A study of Homo sapiens with 6 samples.

Results

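The proteasome is measured here through 40 genes in HT1080 cells, an established human fibrosarcoma line, of 62710 genes in the deposited table. The genes were taken by name through their Ensembl identifiers, and all 40 were found. They comprise 5 interferon-inducible genes, called immune subunits below (PSMB8, PSMB9, PSMB10, PSME1 and PSME2), and 35 genes of the constitutive particle, its regulators and its assembly. The cells were left untreated (3 libraries) or treated with 20 ng/mL human IFNβ for 24 h (3 libraries). The groups shared the cell line, the medium and the serum, and no vehicle is named for the untreated cells. The labels and the study's cell culture methods name human IFNβ for HT1080 cells, whereas its RNA sequencing methods name the mouse protein.

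The 20S core of the proteasome is a barrel of stacked rings, with alpha subunits outside and beta subunits inside, and cuts proteins at the active sites of PSMB5, PSMB6 and PSMB7. The 19S cap binds ubiquitin-tagged proteins, unfolds them with a ring of ATPases and feeds them into the core. Interferons are known to bring in a further set of active-site subunits, PSMB8 (LMP7, β5i), PSMB9 (LMP2, β1i) and PSMB10 (MECL-1, β2i), which take the places of PSMB5, PSMB6 and PSMB7 in newly made immunoproteasomes. These cut proteins into peptides that fit MHC class I molecules. PSME1 and PSME2 encode PA28α and PA28β, which form an activator ring on the end of the core.

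RefSeq promoter windows on GRCh38.p14, from 250 bases before to 50 bases after an annotated start, were found for 35 of the 40 genes. They were searched on both strands for the core of the interferon-stimulated response element (ISRE), that is GAAA, any 2 bases and GAAA, which the transcription factor complex formed after IFNβ binding is known to recognise. The windows of the 5 immune subunits and of the neighbouring TAP1 are shown because they differ in whether they hold these letters. Each window is written 5′ to 3′ on the strand of its gene, and the capitals mark the ISRE core. The core reads TTTC, any 2 bases and TTTC when it lies on the other strand. PSMB8 and TAP1 each have another annotated start, and "second" marks no order of position along the gene.
PSMB8 (second annotated start, chr6:32843998-32844297, minus strand): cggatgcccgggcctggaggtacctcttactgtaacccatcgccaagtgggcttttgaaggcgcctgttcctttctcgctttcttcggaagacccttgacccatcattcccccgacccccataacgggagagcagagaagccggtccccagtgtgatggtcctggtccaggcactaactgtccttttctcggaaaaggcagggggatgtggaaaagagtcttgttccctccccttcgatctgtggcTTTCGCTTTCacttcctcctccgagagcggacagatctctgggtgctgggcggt
PSMB9 (chr6:32853942-32854241, plus strand): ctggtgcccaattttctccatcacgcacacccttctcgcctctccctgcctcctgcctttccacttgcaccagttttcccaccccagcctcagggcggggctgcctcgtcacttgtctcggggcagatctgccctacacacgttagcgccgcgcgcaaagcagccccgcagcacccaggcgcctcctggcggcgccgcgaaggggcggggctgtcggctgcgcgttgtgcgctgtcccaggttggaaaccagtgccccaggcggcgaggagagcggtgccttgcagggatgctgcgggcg
PSMB10 (chr16:67936801-67937100, minus strand): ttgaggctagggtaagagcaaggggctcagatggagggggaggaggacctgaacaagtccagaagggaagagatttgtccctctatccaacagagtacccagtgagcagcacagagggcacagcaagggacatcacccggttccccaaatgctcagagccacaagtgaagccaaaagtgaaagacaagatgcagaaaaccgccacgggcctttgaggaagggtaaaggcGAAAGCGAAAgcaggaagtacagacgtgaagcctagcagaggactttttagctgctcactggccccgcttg
PSME1 (chr14:24135944-24136243, plus strand): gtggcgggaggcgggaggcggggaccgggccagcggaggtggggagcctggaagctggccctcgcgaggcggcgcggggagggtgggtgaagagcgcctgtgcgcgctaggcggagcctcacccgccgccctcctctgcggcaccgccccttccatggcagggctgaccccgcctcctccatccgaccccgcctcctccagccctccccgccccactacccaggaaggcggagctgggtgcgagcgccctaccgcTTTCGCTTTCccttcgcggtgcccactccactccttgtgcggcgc
PSME2 (chr14:24146561-24146860, minus strand): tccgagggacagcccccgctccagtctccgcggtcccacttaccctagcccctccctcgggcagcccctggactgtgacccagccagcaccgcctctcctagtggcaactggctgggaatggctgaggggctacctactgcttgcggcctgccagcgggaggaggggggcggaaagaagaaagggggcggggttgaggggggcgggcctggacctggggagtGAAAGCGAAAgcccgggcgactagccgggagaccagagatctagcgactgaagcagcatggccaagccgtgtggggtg
TAP1 (second annotated start, chr6:32853655-32853954, minus strand): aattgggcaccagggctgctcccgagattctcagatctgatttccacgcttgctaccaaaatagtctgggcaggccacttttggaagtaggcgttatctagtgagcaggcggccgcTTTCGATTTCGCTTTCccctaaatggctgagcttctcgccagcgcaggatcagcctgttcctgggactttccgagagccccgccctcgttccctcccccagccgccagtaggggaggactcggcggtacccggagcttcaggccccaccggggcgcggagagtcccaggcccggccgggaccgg

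An ISRE core lay in a window of 4 of the 5 immune subunit genes. With the annotated start counted as 0, it lay at -4 to 5 in PSMB8, at -21 to -12 in PSMB10, at 5 to 14 in PSME1 and at -28 to -19 in PSME2. Among constitutive genes, 30 had a window and 2 held the core, PSMA4 at -240 to -231 and PSMB4 at -68 to -59. Across all promoter windows in the table, 3.57% held it, or 4.38% of the 27305 genes. The window of PSMB9 held no match, nor did that of the other annotated PSMB8 start. The start of TAP1, the peptide transporter gene on the opposite strand, lay 488 bases from that of PSMB9, and its window held overlapping cores that ended 354 bases from the PSMB9 start, while the window of the other annotated TAP1 start held none. The interferon-gamma activated site (GAS), TTCNNNGAA, was in a window of 1 immune subunit gene (PSMB8, away from its ISRE core) and of 6 constitutive genes, against 9.38% of all genes. These matches describe letters in a window and were not tested as binding sites.

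Fragment totals behind the values were between 22848104 and 32915500 per library, and each member's FPKM (fragments scaled by the length of the gene model and by the fragments of the library) came from whole fragments. The IFNβ response was present in all 3 treated libraries. ISG15, a ubiquitin-like interferon-induced gene, was between 10.0 and 10.9 FPKM in untreated and between 1414 and 1468 FPKM in treated libraries. Of the 6 mesenchymal markers, 5 were well expressed and COL1A2 was below 0.1 FPKM, as were the 4 leukocyte markers, CDH5, EPCAM and CDH1 in every library, and PECAM1 was between 0.188 and 0.327 FPKM. KRT8 and KRT18, keratins of epithelial cells, were expressed and were higher after IFNβ, with log2 fold changes of 1.10 and 0.46. The 5 expressed mesenchymal markers moved both ways, with VIM (-0.29), COL5A1 (-0.39) and CD44 (-0.09) lower and FN1 (0.51) and SPARC (0.32) higher after IFNβ. The part of any other cell type in the results below was not tested. Within each group, libraries differed beyond counting error. The labels do not say whether they came from separate cultures. The paper's statistics methods give its in vitro experiments at least 3 independent biological replicates, and do not name the RNA sequencing libraries. The p-values here therefore measure the spread between these libraries, which may be technical.

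All 5 immune subunit genes rose after IFNβ, and none of their treated libraries overlapped the untreated ones, a separation seen for 46.6% of all genes tested. In bulk RNA of this kind, a change in the number of cells that express a gene and in its RNA per cell cannot be told apart. PSMB9 rose most, about 12.9-fold in mean FPKM. PSMB10 rose 4.30-fold, PSMB8 4.16-fold, PSME2 2.80-fold and PSME1 2.46-fold. All 5 were differentially expressed genes (DEGs), meaning an adjusted p under 0.05 together with a log2 change of 1 or more in size (scale log2(FPKM + 0.1)), a rule that 3.49% of the 20716 genes tested met in the upward direction.

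PSMB9 (ENSG00000240065, protein coding, chromosome 6 from 32844136 to 32859585, plus strand in GENCODE release 29 on GRCh38) encodes the immune subunit that replaces PSMB6. It was at 2.02, 2.78 and 2.20 FPKM in the untreated libraries and at 29.1, 31.5 and 29.8 FPKM in the treated ones. The untreated values came from 154, 275 and 242 fragments, so this gene was low but present before treatment, and all treated libraries were far above. The gene rose by 3.65 ± 0.11 on the log2 scale (± standard error; limma adjusted p = 3.09e-06), and it ranked 74 by rise among the genes tested.

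PSMB8 (ENSG00000204264, protein coding, chromosome 6 from 32840717 to 32844703, minus strand), the partner that replaces PSMB5, started higher. It was at 9.42, 9.37 and 8.41 FPKM in untreated and 36.6, 38.0 and 38.4 FPKM in treated libraries, which were tightly grouped. This was a rise of 2.05 ± 0.05 on the log2 scale (limma adjusted p = 9.96e-07). PSMB10 (ENSG00000205220, chromosome 16 from 67934502 to 67937087, minus strand), which replaces PSMB7, was at 1.94, 2.53 and 2.60 FPKM and reached 9.29, 10.3 and 10.8 FPKM. It was the lowest of the 5 immune subunit genes after IFNβ. It rose by 2.07 ± 0.12 on the log2 scale (limma adjusted p = 5.71e-05).

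The PA28 genes lie near each other on chromosome 14, with 4395 bases between them. PSME1 (ENSG00000092010, from 24136158 to 24138967, plus strand), which encodes PA28α, was at 23.3, 29.3 and 25.5 FPKM in untreated and 63.5, 62.1 and 66.5 FPKM in treated libraries. PSME2 (ENSG00000100911, from 24143362 to 24147570, minus strand), which encodes PA28β, went from 13.5, 15.6 and 13.6 FPKM to 38.2, 40.5 and 40.9 FPKM. In both genes the second untreated library was the highest of its group and still far below the treated libraries. On the log2 scale PSME1 rose by 1.30 ± 0.08 (limma adjusted p = 7.87e-05) and PSME2 by 1.48 ± 0.06 (limma adjusted p = 1.48e-05). PSME1 stayed above PSME2 per length, at 1.83 ± 0.0848 times its FPKM in untreated and 1.61 ± 0.0660 times in treated libraries (mean ± S.D., n = 3). This order depends on the gene model lengths, recovered as 1776 bases for PSME1 and 3582 for PSME2. In fragments PSME2 was above PSME1 in every library. The counts were 1103, 1662 and 1602 against 946, 1544 and 1493 untreated, and 4219, 3625 and 4233 against 3474, 2755 and 3411 treated.

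PSME3, which encodes PA28γ, the nuclear relative of these activators, moved slightly the other way. It was at 63.0, 61.9 and 64.1 FPKM in untreated and 58.5, 58.6 and 59.8 FPKM in treated libraries, without overlap. The log2 fold change was -0.10 (limma adjusted p = 0.0122), and the call was lost with eBayes without trend (adjusted p = 0.0974). PSME4 (PA200), a further activator, and PSMF1 (PI31), a regulator first described as an inhibitor of the core, did not pass the test, with log2 fold changes of -0.06 (95% interval -0.11 to -0.01, adjusted p = 0.0900) and -0.03 (95% interval -0.11 to 0.05, adjusted p = 0.567).

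**Figure D1:**
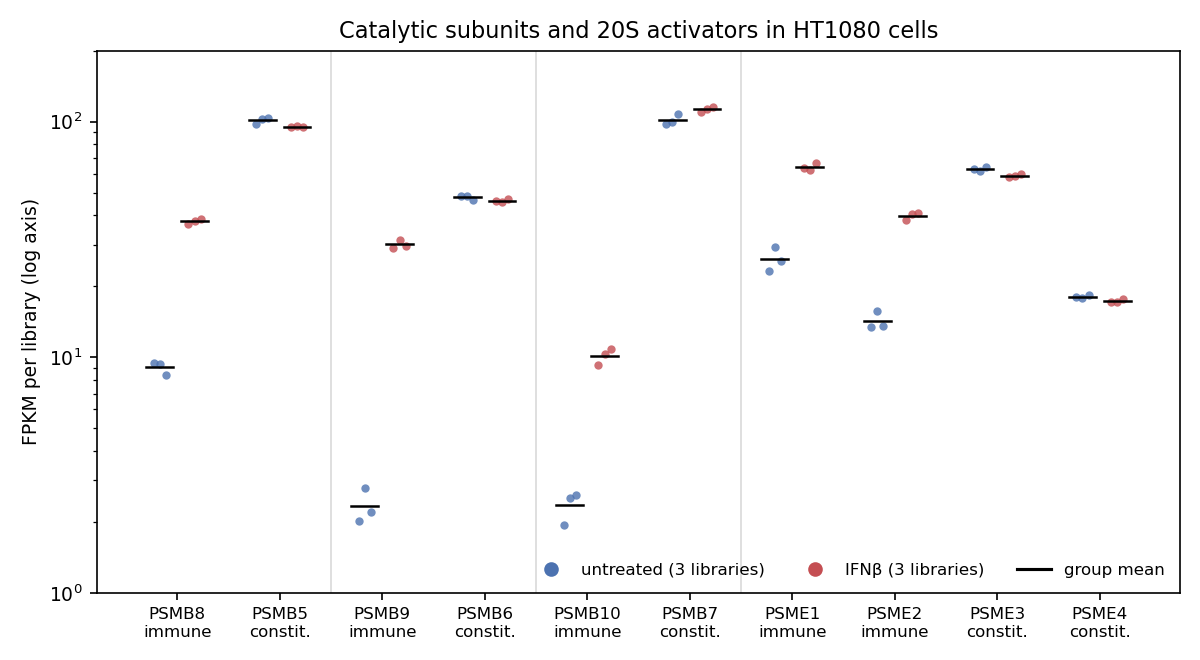
FPKM on a log axis of the immune and constitutive active-site subunits, in their pairs, and of the 20S activators, with a point per library and a line at the mean of the 3 untreated or 3 IFNβ-treated libraries. The immune genes rise clear of their untreated values while PSMB5, PSMB6, PSMB7, PSME3 and PSME4 stay near theirs. In FPKM, which depends on gene model length, each immune active-site gene remains under its constitutive partner.

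The constitutive active-site genes moved little. PSMB5 (chymotrypsin-like site) was at 97.7, 103 and 104 FPKM in untreated and 95.20, 95.79 and 94.96 FPKM in treated libraries. Its log2 fold change was -0.09 (limma adjusted p = 0.0395), and the call was lost when any library but the first untreated one was left out (adjusted p between 0.0969 and 0.116). PSMB6 (caspase-like site) was at 48.3, 48.4 and 46.5 FPKM and then 45.9, 45.8 and 46.9 FPKM. These groups overlapped, and the change did not pass, at -0.05 with a 95% interval of -0.10 to 0.01. PSMB7 (trypsin-like site) was at 98.0, 99.8 and 108 FPKM and then 110, 114 and 115 FPKM. It rose by 0.15 on the log2 scale (limma adjusted p = 0.0280), a call lost without any one library other than the third untreated one (adjusted p between 0.0580 and 0.102).

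Each immune subunit gained on its constitutive partner in every treated library. The FPKM ratio of PSMB9 to PSMB6 was 0.0418, 0.0573 and 0.0474 in untreated and 0.634, 0.688 and 0.635 in treated libraries, a 13.5-fold change. PSMB8 relative to PSMB5 went from 0.0964, 0.0914 and 0.0811 to 0.385, 0.397 and 0.405, which is 4.42-fold. PSMB10 relative to PSMB7 went from 0.0198, 0.0253 and 0.0241 to 0.0841, 0.0905 and 0.0938, which is 3.90-fold. The log2 ratios changed by 3.75, 2.14 and 1.96. None of the 3 ratios overlapped between groups, and each gave p = 0.10 in a two-sided exact permutation test over libraries (0.10 also after adjustment over the 3), the smallest p that 3 against 3 allows.

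As a share of the pair's FPKM, PSMB9 went from 4.65% ± 0.714 to 39.5% ± 1.12, PSMB8 from 8.22% ± 0.659 to 28.3% ± 0.521, and PSMB10 from 2.25% ± 0.278 to 8.21% ± 0.413 (mean ± S.D., n = 3). Over the 3 positions together, immune subunits held 5.20%, 5.53% and 4.87% in untreated and 23.0%, 23.8% and 23.5% in treated libraries. The 3 constitutive partners summed to 251 ± 7.02 FPKM before and 255 ± 2.88 FPKM after IFNβ, while the immune ones went from 13.8 ± 0.806 to 77.9 ± 2.56 FPKM. These are shares of RNA per length of the authors' gene models, which are longer for PSMB8 and PSMB9 than for their partners (recovered as 3480 and 3338 bases, against 1549 for PSMB5 and 1447 for PSMB6). Taken as fragments instead, the immune share was 9.57% ± 0.662 and 37.3% ± 0.493. The direction was the same, but the level of the share depends on these lengths, as does the order of PSMB9 and PSMB6. In fragments PSMB9 was above PSMB6 in every treated library, at 2992, 2627 and 2872 against 2047, 1656 and 1961. PSMB8 and PSMB10 were below their partners in fragments too.

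**Figure D2:**
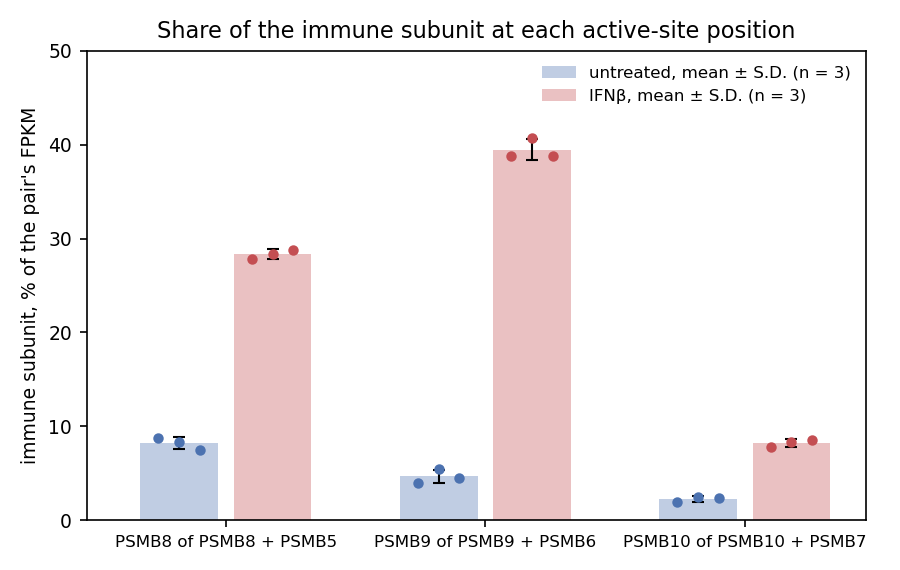
Percentage of each pair's summed FPKM held by the immune subunit, with bars for the mean, error bars for the S.D. over 3 libraries and a point per library. The share rises at each position and is highest for PSMB9 after IFNβ, at 39.5%, and lowest for PSMB10, at 8.21%.

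The 35 constitutive genes all passed the filter on low values, and their log2 fold changes lay between -0.24 and 0.38, with a median of -0.05. The upper limit is PSMA2, a gene of few fragments (0.11 with a pseudocount of 1, 0.22 without IFNβ replicate 1 and 0.55 by limma-voom). Without PSMA2 and PSMA6 the upper limit was 0.21, a check chosen after the data were seen. None was a DEG by limma, nor by limma-voom on recovered fragments, whereas 19 had an unadjusted p under 0.05. By adjusted p alone, 4 were higher and 13 were lower, 17 in all against 10 with eBayes without trend. Of all genes tested, 32.7% were called in either direction by this rule, 15.2% higher and 17.5% lower. Among the 11996 genes with a mean of at least 1 FPKM, as all but 2 of these members have, it was 49.4%, with 21.1% higher and 28.3% lower. The 17 of 35 called are close to the share among genes of such levels. The median log2 fold change was 0.00 over all genes tested and -0.03 over those of at least 1 FPKM. Groups did not overlap for 23 of the 35, where 46.6% of all genes tested and 62.7% of those of at least 1 FPKM did not.

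The outer alpha ring, which gates the entry to the core, was split. PSMA3 rose from 34.6, 36.5 and 37.1 FPKM to 39.8, 40.9 and 42.6 FPKM (log2 fold change 0.19, limma adjusted p = 0.00988). PSMA4 rose from 22.9, 23.9 and 23.7 FPKM to 27.3, 27.1 and 27.3 FPKM (0.21, adjusted p = 0.000743). PSMA5 rose from 20.4, 20.8 and 21.0 FPKM to 23.6, 24.9 and 23.7 FPKM (0.21, adjusted p = 0.00163). For these 3 the groups did not overlap, as for 62.7% of genes of at least 1 FPKM. PSMA4 is among the 2 constitutive genes with an ISRE core in a window, and the windows of its other annotated starts held none.

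PSMA1 fell from 8.90, 8.74 and 8.92 FPKM to 8.05, 7.28 and 7.19 FPKM, the largest fall among the 40 genes, by 0.24 on the log2 scale (limma adjusted p = 0.0103). PSMA7 was the most abundant alpha subunit, at 148 to 149 FPKM in untreated and 134 to 142 FPKM in treated libraries. Its change was -0.10 (adjusted p = 0.0271). Without any one untreated library it was -0.09 to -0.10 and the call was lost (adjusted p between 0.0660 and 0.0859), and after quantile normalization it was -0.02.

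PSMA2 and PSMA6 were measured at very low levels for obligatory ring subunits. PSMA2 lay between 0.165 and 0.372 FPKM, with 33 to 96 fragments per library, and PSMA6 between 0.841 and 1.05 FPKM. In GENCODE release 29 each shares exon sequence with a protein-coding gene on the same strand, 781 bases of PSMA2 with AC010132.3 and 919 bases of PSMA6 with AL121594.1. Those partners were themselves at or below 0.114 FPKM. The part of shared exons or of gene model length in the low values was not tested, and neither gene passed the test (PSMA2 0.38, 95% interval -0.20 to 0.96; PSMA6 0.13, 95% interval -0.11 to 0.37).

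Among beta subunits that carry no active site, PSMB1 fell from 79.1, 82.7 and 82.7 FPKM to 71.7, 72.8 and 74.3 FPKM (log2 fold change -0.16, limma adjusted p = 0.00376). PSMB2, PSMB3 and PSMB4, with untreated means of 53.4, 88.1 and 107 FPKM, changed by -0.02, 0.06 and -0.06 and did not pass. PSMB4, which has an ISRE core in its window, was at 102 FPKM on average after IFNβ. Left-out libraries moved 2 of these over the threshold. PSMB3 passed without the third untreated library (0.10, adjusted p = 0.0356) and PSMB4 without the first (-0.09, adjusted p = 0.0256).

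None of the 17 genes of the 19S cap was called higher, 8 were called lower (5 with eBayes without trend) and 9 did not pass. Of genes of at least 1 FPKM, 21.1% were called higher, 28.3% lower and 49.4% in either direction. In the ring of 6 ATPases that unfolds substrates, 1 fell. PSMC5 went from 40.3, 39.3 and 39.4 FPKM to 35.1, 34.9 and 33.9 FPKM (log2 fold change -0.20, limma adjusted p = 0.000834). For the other 5 ATPase genes the changes were between -0.06 and 0.05. In release 29 PSMC5 shares 874 exon bases with FTSJ3 on the other strand, which was at 51.5, 49.6 and 50.5 FPKM in untreated and 47.8, 47.6 and 48.6 FPKM in treated libraries, and PSMC1 shares 4671 with NRDE2, which was between 1.51 and 1.83 FPKM. Since strand use in counting is not stated, reads of these pairs may not be told apart, and the part of FTSJ3 in the fall of PSMC5 was not tested.

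In the base of the cap, PSMD2, a scaffold that docks ubiquitin receptors, was the most abundant of the 40 genes. It fell from 278, 268 and 273 FPKM to 236, 235 and 239 FPKM (log2 fold change -0.21, limma adjusted p = 0.000476), and the groups lay well apart. Its scaffold partner PSMD1 was at 17.5 ± 0.371 FPKM before and 16.7 ± 0.333 FPKM after IFNβ (-0.07, adjusted p = 0.108), and passed by limma-voom on recovered fragments (-0.07, adjusted p = 0.0328). PSMD4, a ubiquitin receptor, had means of 45.4 and 45.5 FPKM, with a change of 0.00 and a 95% interval of -0.06 to 0.06.

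Of the 8 genes of the lid, 6 fell, by 0.12 to 0.19 on the log2 scale, beside 17.5% of all genes tested and 28.3% of those of at least 1 FPKM. PSMD14 encodes the enzyme that cuts ubiquitin chains off substrates, and it fell from 30.7, 31.1 and 31.3 FPKM to 27.6, 27.5 and 28.1 FPKM (limma adjusted p = 0.00102). PSMD7, its partner in the enzyme's dimer, fell from 33.3, 32.8 and 32.5 FPKM to 28.0, 28.8 and 29.7 FPKM (adjusted p = 0.00198). PSMD8 fell from 40.8 ± 0.777 to 37.0 ± 0.334 FPKM (adjusted p = 0.00258) and PSMD13 from 49.8 ± 0.651 to 45.7 ± 0.862 FPKM (adjusted p = 0.00541). These scaffold subunits of the lid showed no overlap between groups, nor did 46.6% of all genes tested and 62.7% of those of at least 1 FPKM. PSMD12 went from 32.9 ± 0.919 to 29.1 ± 1.34 FPKM (adjusted p = 0.0160) and PSMD6 from 16.1 ± 0.518 to 14.6 ± 0.442 FPKM (adjusted p = 0.0263). The call of PSMD12 was lost without the first or the third untreated library (adjusted p = 0.0520 and 0.0549), and that of PSMD6 without the first or second treated or the second untreated library (adjusted p = 0.0830, 0.0804 and 0.0654). With a library left out the log2 fold changes were -0.20 to -0.14 for PSMD12 and -0.16 to -0.11 for PSMD6. With eBayes without trend the calls of PSMD6, PSMD12 and PSMD13 were lost (adjusted p = 0.0813, 0.0575 and 0.0533), which leaves 3 of the 8. The other lid genes, PSMD3 and PSMD11, changed by 0.03 and -0.01 and did not pass.

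POMP, the chaperone that guides the ring-by-ring completion of the core and is needed for immunoproteasome assembly, did not pass. It was at 23.2, 24.0 and 25.7 FPKM in untreated and 24.0, 24.1 and 26.4 FPKM in treated libraries, which overlapped, and its log2 fold change was 0.03 with a 95% interval of -0.09 to 0.16.

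**Figure D3:**
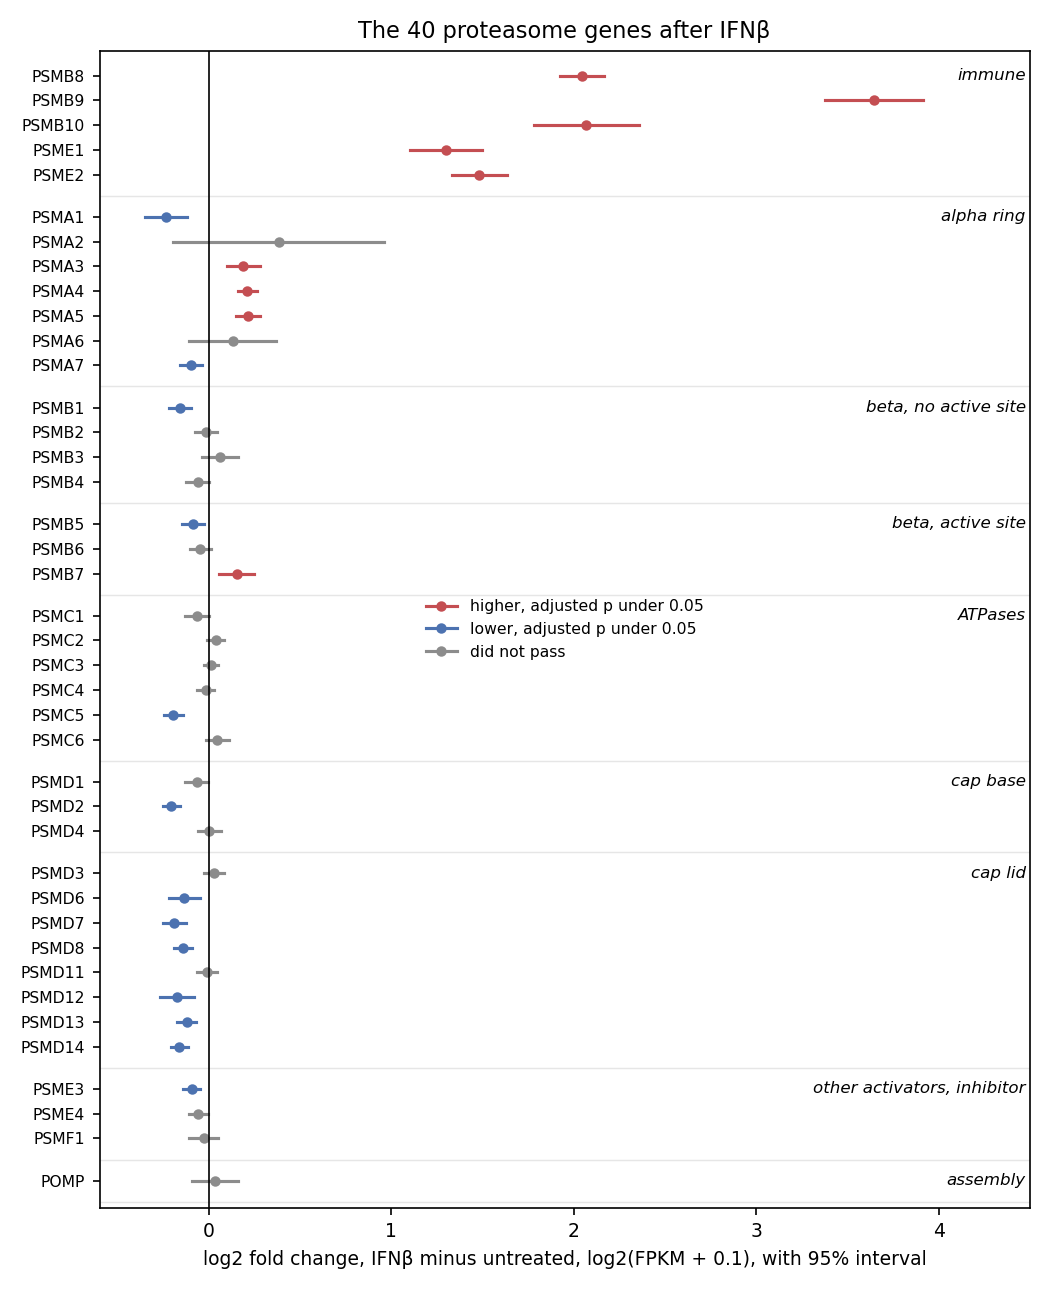
Log2 fold change of each of the 40 genes with its 95% interval on the log2(FPKM + 0.1) scale, from limma over 3 untreated and 3 IFNβ-treated libraries, ordered by role and coloured by the call at an adjusted p under 0.05. The 5 immune genes lie between 1.30 and 3.65, and the 35 others between -0.24 and 0.38.

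Further genes of the pathway were taken from a list of 26, of which 24 were tested. PSMA8 and PSMB11, which are restricted to testis and thymus, were listed at 0 in every library. Of those tested, 5 were higher and 6 were lower, and 2 were DEGs. The 11 called are close to the 49.4% called among genes of at least 1 FPKM (32.7% of all genes tested), and 4.22% of all genes tested were DEGs. Both DEGs were regulators known to drive the immune subunit genes. NLRC5, the transactivator of MHC class I genes, rose from 2.04, 2.01 and 2.05 FPKM to 12.1, 12.5 and 12.3 FPKM (log2 fold change 2.54, limma adjusted p = 5.52e-08). IRF1, a transcription factor that binds ISRE sequences, rose less, from 1.76, 2.13 and 1.65 FPKM to 4.37, 4.42 and 4.32 FPKM (1.21, adjusted p = 0.000197). For both regulators the treated libraries lay clear of the untreated ones.

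Outside these regulators, changes on the list stayed between -0.31 and 0.23. NFE2L1 (NRF1), the transcription factor that raises proteasome subunit genes together when the proteasome is impaired, was slightly higher, at 78.4, 78.9 and 79.0 FPKM in untreated and 92.2, 93.2 and 92.4 FPKM in treated libraries (0.23, limma adjusted p = 7.93e-05). The genes of the proteins that activate NFE2L1 differed in direction. NGLY1, the enzyme that removes its sugars, changed by 0.18 (adjusted p = 0.0131), whereas DDI2, the protease that cleaves it, had the lowest log2 fold change on the list, falling from 4.37, 4.22 and 4.26 FPKM to 3.416, 3.501 and 3.373 FPKM (-0.31, adjusted p = 0.00134). Of the 9 assembly chaperones, PSMG1 and PSMG3 were lower (-0.23 and -0.14) and 7 did not pass. Among proteins bound to the cap, ECPAS was higher (0.14), and UCHL5 and TXNL1 were lower (-0.13 and -0.17). Of the 4 ubiquitin shuttle genes on the list, UBQLN4 was lower (-0.25) and 3 did not pass. Beside these counts, 17.5% of all genes tested and 28.3% of those of at least 1 FPKM were lower, and 15.2% and 21.1% were higher, so the 2 lower chaperone genes of 9 are near the background.

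Within 20 kb of the immune subunit genes, 20 other genes of the table were annotated, of which 13 were tested, 5 were higher and 1 was lower, against 15.2% and 17.5% of all genes tested. The 4 DEGs among them (4.22% of all genes tested) were TAP1, TAP2, PSMB8-AS1 and IRF9. TAP1 and TAP2, which encode the paired chains of the transporter that carries peptides into the endoplasmic reticulum, lie in the MHC region of chromosome 6. TAP2 lies near PSMB8, and TAP1 (32845209 to 32853978, minus strand) lies within the release 29 span of PSMB9. That span starts at 32844136, whereas the RefSeq start behind the PSMB9 promoter window is at 32854192. TAP1 rose from 6.56, 7.55 and 6.52 FPKM to 106, 111 and 107 FPKM (log2 fold change 3.96, limma adjusted p = 1.06e-07), and TAP2 from 8.42, 8.97 and 8.78 FPKM to 22.2, 22.8 and 22.5 FPKM (1.36, adjusted p = 6.85e-07). PSMB8-AS1, a long non-coding RNA, went from 0.0723, 0.223 and 0.113 FPKM to 1.62, 1.26 and 1.29 FPKM (2.70, adjusted p = 0.000494). It shares 618 exon bases with PSMB8 and 174 with PSMB9, and PSMB8 shares 139 with PSMB9, so without strand some reads of the 3 genes may not be told apart. IRF9, the DNA-binding part of the IFNβ-activated complex, lies 13483 bases from PSME2 and rose from 0.115, 0.151 and 0.141 FPKM to 1.64, 1.65 and 1.31 FPKM (2.79, adjusted p = 4.91e-05).

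A response was not shared by all genes near the PA28 pair. EMC9, which lies between PSME1 and PSME2, was at 5.42, 6.63 and 5.14 FPKM in untreated and 5.39, 6.69 and 5.22 FPKM in treated libraries (0.01, 95% interval -0.30 to 0.32). DCAF11, before PSME1, was lower (-0.31, limma adjusted p = 0.0127). RNF31, which overlaps PSME2, did not pass at 0.53 (95% interval 0.09 to 0.96, adjusted p = 0.0690). Nor did AL136295.5, near PSME2, at 0.57 (95% interval -0.02 to 1.17, adjusted p = 0.132). In release 29 AL136295.5 spans IRF9 and overlaps RNF31, all on the plus strand. The part of shared reads in the values of these genes was not tested. On chromosome 16, SLC12A4, a potassium chloride cotransporter, was the one gene called around PSMB10 (0.22, adjusted p = 0.0129). The gene AC040162.1, which shares 644 exon bases with PSMB10, was between 0.176 and 0.352 FPKM in all libraries and did not pass (0.39, 95% interval -0.17 to 0.94, adjusted p = 0.259).

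The genes whose profile over the 6 libraries lay nearest to that of PSMB9, by the root mean square distance of centred log2(FPKM + 0.1) values, were TRIM22 (0.104), UBE2L6 (0.106) and C1R (0.107). TRIM22, an interferon-induced ubiquitin ligase, was at 3.34 ± 0.302 FPKM in untreated and 47.8 ± 0.512 FPKM in treated libraries. UBE2L6, the enzyme that conjugates ISG15, went from 11.4 ± 0.653 to 134 ± 3.60 FPKM, and C1R, a complement protease, from 0.954 ± 0.166 to 13.6 ± 0.257 FPKM. With 2 groups, this distance mostly reflects the size of the change.

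The table also lists 40 pseudogenes named after the members, of which 5 had a mean above 0.1 FPKM. Among copies of the immune subunit genes, PSME2P1 was the highest, at 0.547, 0.796 and 0.295 FPKM in untreated and 1.76, 1.17 and 1.63 FPKM in treated libraries, with at most 39 fragments in a library, while PSME2 itself had at least 1103. The highest mean among all of them was that of PSMC1P1, at 2.55 FPKM, with at most 117 fragments in a library. PSMA6P1 reached 2.16 FPKM, with at most 49 fragments in a library where PSMA6 had at least 125. Its FPKM was above that of PSMA6 except in the third untreated library (0.861 against 0.999 FPKM).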

How the data were processed

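The authors deposited FPKM for each Ensembl gene in 6 HT1080 libraries. The submitters' processing notes name fastp, HISAT2, StringTie and GRCh38, the labels name paired-end sequencing, and the methods name mRNA enrichment and DESeq2. The annotation and strand setting are not given in the sources used here; 4436 of the gene IDs are not in GENCODE release 29, so locations and shared exons taken from that release may differ from the authors'. The FPKM of a gene step by whole fragments, and these were recovered for 100% of the 35303 genes above 0 (tolerance 0.001 fragments), using the exon length of release 29 where it gave whole fragments (16427 genes) and otherwise the smallest length that did. A gene of 1 kb with 1 fragment has 0.0304 to 0.0438 FPKM.

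The groups were compared on log2(FPKM + 0.1) by limma 3.58.1 in R 4.3.3 (lmFit, then eBayes with trend) over the 20716 genes whose mean FPKM reached 0.1. P-values are two-sided and Benjamini-Hochberg adjusted over all of these, and single-gene intervals are 95% limma intervals. On this scale the change of low genes is understated. Ratios were tested by exact permutation in Python 3.11.15. The procedure was tested on simulated data. The 40 members, the pathway and marker lists, the motifs and the tests were chosen with earlier results of these data known. Named were all members, DEGs, extremes and regulators of the pathway list, neighbouring DEGs within 20 kb and the 3 genes nearest PSMB9; other genes named beside them were chosen after their values were seen. Some pathway genes are not reported here. Symbols were paired by a gene name table, and promoter sequences are from RefSeq. Alternatives covered pseudocounts, filters, scalings, eBayes without trend, a replicate block, left-out libraries, thresholds and limma-voom on recovered fragments.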

Additional observations from a re-analysis of the deposited data

How the results depend on the processing

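The 5 immune subunit genes were called as DEGs under all 16 alternative fits, with PSMB9 between 3.23 and 3.77 and PSME1 between 1.22 and 1.39, and passed at an adjusted p under 0.01. The count of constitutive genes called, 17, became 10 with eBayes without trend, 10 at an adjusted p under 0.01 and 0 with the fold threshold of a DEG, and was 13 to 15 with a library left out. Of the 17, 10 were called under every alternative fit and none changed sign, while PSMA7, PSMB5, PSMB7, PSMD6, PSMD12, PSMD13 and PSME3 were lost with eBayes without trend, some also in other fits; the cause was not tested. Sign changes occurred in 3 genes that were not called, where PSMD4 ranged from -0.0154 to 0.0245, PSMD11 from -0.0216 to 0.00683 and POMP from -0.0118 to 0.0734 with a library left out, and PSMD11 was at 0.00252 with equal FPKM totals. The pathway genes called fell from 11 to 2 with the fold threshold and were 9 to 11 with a library left out. The immune share of the active-site FPKM was 6.19% untreated and 23.9% treated with a pseudocount of 1, and 9.57% and 37.3% in fragments. Alternatives for counts beyond the members were chosen after the data were seen. The DEGs over all genes, 875, became 425 with a filter of 1 FPKM, which tests fewer genes, and 304 with a pseudocount of 1. The neighbouring DEGs, 4, became 2 with that filter and were 5 by limma-voom on recovered fragments. Quantile normalization moved the median of all genes most among the scalings, to -0.06. Same-numbered libraries of the groups shared a number in their titles, and whether they were paired is not known. Correlations of their deviations were 0.014, 0.0228 and 0.0307, against -0.0286 to 0.0058 for differently numbered libraries, so all were small. With the number as a replicate block, 15 constitutive genes, 5 immune genes and 11 pathway genes were called, and paired ratio changes were 3.75, 2.14 and 1.96, where an exact test over 3 pairs cannot go below p = 0.25.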
